A study of Mus musculus with 16 samples.

Results

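Mouse back skin contains, beneath the dermis and fat, a thin sheet of striated muscle, the panniculus carnosus, and this sheet can be taken with the skin when whole tissue is collected for RNA. A set of 34 genes of the skeletal muscle contractile apparatus was followed here: the sarcomere proteins, the calcium release and uptake machinery, and muscle-specific enzymes. The rule is a list of gene symbols that mark skeletal muscle and its fast and slow fibres: 14 genes of fast fibres, 7 of slow fibres and 13 shared by both. All 34 symbols matched 1 row each among the 55357 gene rows of the skin table and the 56953 of the stem cell table. The series compared control C57BL/6 mice with mice labelled GRK2 eKO, and the title places the study in hair follicle homeostasis. The labels neither spell out eKO nor name a Cre driver, the targeted cells or a deleted exon. Whole back skin of mice aged 8 months gave 5 control and 5 eKO libraries, sequenced after poly-A selection. The other 6 libraries, 3 control and 3 eKO, came from bulge hair follicle stem cells sorted as CD34+ α6-integrin+, for which the sample labels give 18 months and the series text gives 8 months of age. No label gives sex or a preparation batch, and none says outright that each library is a separate animal, so p-values measure only the spread between these libraries.

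A striated muscle fibre shortens when myosin heads of the thick filament pull on actin of the thin filament, and the unit of both is the sarcomere, bounded by Z-discs. Calcium released from the sarcoplasmic reticulum starts the pull by binding troponin C, which moves tropomyosin off the actin. Fast and slow fibres use different genes for many of these parts, so that the isoforms of myosin, troponin and calcium pump tell the fibre type. In mouse, the fast heavy chains run from Myh2 (type 2A, the most oxidative) through Myh1 (2X) to Myh4 (2B, the most glycolytic), and Myh7 is the slow chain.

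The values are normalised read counts, that is, the reads of a gene divided by 1 scaling factor per library, and recovered whole reads totalled 8213632 to 16383486 per skin library and 6428488 to 9387378 per stem cell library. Grk2, the targeted gene, was at 1237, 1331, 1331, 1099.7 and 1492 in the control skin libraries and at 979.7, 1100.4, 1172, 1076 and 1224 in the eKO ones. Its groups overlapped, with a difference of -0.22 on the log2 scale (exact permutation p = 0.0397, two-sided, n = 5 per group; adjusted p = 0.343 by limma over all genes). In the sorted cells the difference was -0.24 (exact permutation p = 0.2, n = 3 per group, where 0.1 is the smallest p possible). The sort markers Cd34 and Itga6 were at 1157 to 1323 and 2047 to 3290.4 over the 6 stem cell libraries, and the bulge keratin Krt15 at 95754 to 119551. Skin libraries also differed apart from genotype. The Y-linked genes Ddx3y, Uty, Kdm5d and Eif2s3y were at or near 0 in control 5 and eKO 3 and present in the other 8, and a list of 19 hair matrix and shaft genes summed to 189438 in control 4 and 72121 in eKO 3, against 197 to 39872 elsewhere. Values that bear on these differences stand beside the results they touch.

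The regulatory DNA of a few members is shown first, as background on genes that rose and fell together and on neighbouring myosin genes that parted. Whether these letters bear on either pattern was not tested. RefSeq promoter windows of mouse build GRCm38.p6, from 250 bases before to 50 after each start, were found for 28 of the 34 members; those of Neb, Tnni2, Tnnt3, Actn3, Myoz1 and Tcap were not among them. Acta1 stands for the members that kept in step, Ckm is the classical muscle enzyme gene, and Myh1 and Myh4 are the neighbouring heavy chain genes whose balance differed most between libraries. Capitals mark the E-box CAGCTG (the core to which MyoD-family factors bind), TATAAA, the CArG box (the core of the serum response element) and the MEF2 site, each searched on both strands.
Acta1 (chr8:123894726-123895025, minus strand): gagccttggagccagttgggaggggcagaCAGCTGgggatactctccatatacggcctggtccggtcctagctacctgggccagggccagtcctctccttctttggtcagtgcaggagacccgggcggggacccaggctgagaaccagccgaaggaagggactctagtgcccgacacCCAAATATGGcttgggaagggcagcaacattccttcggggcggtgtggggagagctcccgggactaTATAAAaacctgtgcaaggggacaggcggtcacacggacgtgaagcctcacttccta
Ckm (chr7:19410844-19411143, plus strand): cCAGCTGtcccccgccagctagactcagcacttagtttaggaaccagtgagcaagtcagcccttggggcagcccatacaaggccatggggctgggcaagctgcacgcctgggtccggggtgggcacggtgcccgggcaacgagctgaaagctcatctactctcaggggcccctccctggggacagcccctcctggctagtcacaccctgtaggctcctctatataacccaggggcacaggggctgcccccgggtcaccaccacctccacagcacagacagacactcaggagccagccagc
Myh1 (chr11:67199852-67200151, plus strand): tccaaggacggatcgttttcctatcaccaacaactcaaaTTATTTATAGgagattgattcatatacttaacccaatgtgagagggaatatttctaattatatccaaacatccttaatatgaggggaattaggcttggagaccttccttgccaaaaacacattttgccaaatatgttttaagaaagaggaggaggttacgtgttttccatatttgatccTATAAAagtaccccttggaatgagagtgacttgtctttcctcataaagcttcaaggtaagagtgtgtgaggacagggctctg
Myh4 (chr11:67237562-67237861, plus strand): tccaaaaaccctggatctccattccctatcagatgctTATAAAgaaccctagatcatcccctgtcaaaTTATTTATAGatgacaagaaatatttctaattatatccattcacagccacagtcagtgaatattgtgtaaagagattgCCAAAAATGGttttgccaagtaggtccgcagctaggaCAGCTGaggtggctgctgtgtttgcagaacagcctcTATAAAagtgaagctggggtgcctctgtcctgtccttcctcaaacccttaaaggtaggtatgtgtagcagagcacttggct
The Acta1 window held 1 CAGCTG, 1 CArG box and 1 TATAAA, and the Ckm window held a single CAGCTG. Myh1 and Myh4 each carried a MEF2 site with the same letters, TTATTTATAG, which on the other strand contains TATAAA, and a further TATAAA close to the start. Only the Myh4 window of the pair held a CArG box, a CAGCTG and another TATAAA, with its first base at -213 from the start. Among the 28 members with a window, 15 (53.6%) held CAGCTG, against 18.3% of all 27025 genes in the RefSeq table. The looser form CANNTG, which includes CAGCTG, was in 24 of 28 members (85.7%) and in 75.0% of all genes. The CArG box was in 4 members (Acta1, Ldb3, Myh4 and Myl3; 14.3% against 1.81% of all genes). The MEF2 site was also in 4 members (Myh1, Myh4, Pvalb and Ttn; 14.3% against 3.70%), and TATAAA in 7 (25.0% against 15.7%). These are counts of letters in a window, with no measure of binding.

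Muscle transcripts were a small and variable part of the skin libraries. The 34 genes took 1.43, 2.38, 1.73, 1.03 and 2.09% of the recovered reads in control libraries 1 to 5, and 1.37, 1.5, 0.431, 1.96 and 1.53% in eKO libraries 1 to 5. The control mean was 1.73 ± 0.535% (SD, n = 5) and the eKO mean 1.36 ± 0.563% (SD, n = 5), so the means lay closer than the spread within either group. The library eKO 3 stood apart, 2.38-fold below the next lowest library, control 4, and 5.53-fold below the highest, control 2; eKO 3 and control 4 are also the 2 libraries with the most hair matrix signal. Without eKO 3 the eKO mean was 1.59 ± 0.257% (SD, n = 4). Counting error was small beside these differences: the 95% Wilson interval of the lowest share, counting error only, ran from 0.428 to 0.434%, and eKO 3 was the most deeply sequenced library. In bulk tissue, fewer muscle fibres and less RNA per fibre cannot be told apart. Ttn, the longest of the transcripts, supplied 13.7 to 24.8% of the reads on the 34 genes. Acta1, a far shorter transcript, held more reads in total over the skin libraries, 410606 against 367980 for Ttn.

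**Figure D1:**
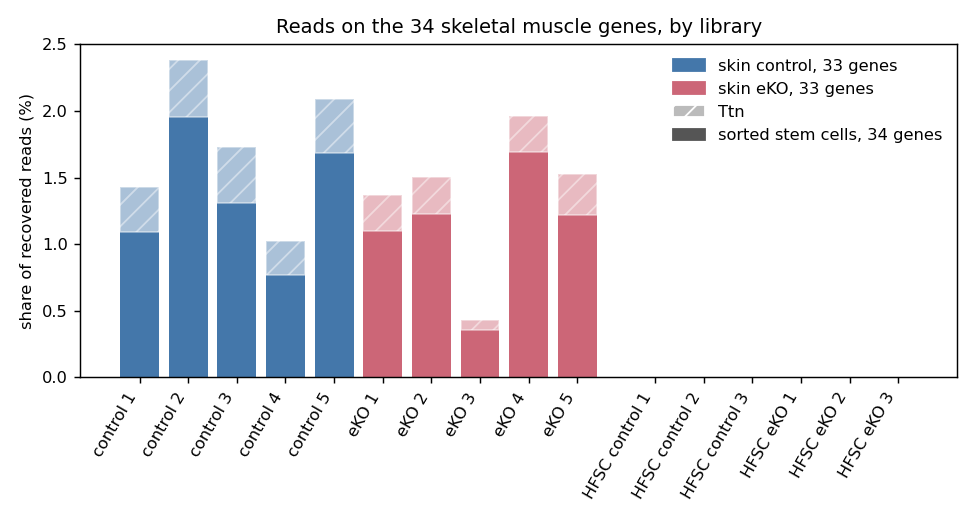
Percentage of recovered reads on the 34 muscle genes (y axis) in each library (x axis); solid bars are 33 genes without Ttn, pale hatched parts are Ttn, and the stem cell bars show all 34. The skin libraries lie between 0.431 and 2.38%, with eKO 3 lowest, and the stem cell bars are too low to be seen on this axis.

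Per kb of transcript, Acta1, the skeletal actin, had the highest mean level of the 34 over the 10 skin libraries (27300.2 per kb), followed by Tcap, the titin cap (5946), and Atp2a1, the fast calcium pump (5010.2). Not divided by length, Acta1 was at 37274, 56528, 44121, 22174 and 50995 in control libraries 1 to 5 and at 34639, 46312, 12481, 44978 and 45259.7 in eKO 1 to 5. The groups overlapped: eKO 3 was the lowest library and control 4 the next, and the other 4 eKO libraries lay within the control range. The eKO difference of Acta1, from limma on log2(value + 1) as for every difference below, was -0.27 (SE 0.40, adjusted p = 0.800). Ttn, the elastic filament that spans the sarcomere from Z-disc to M-band, was at 40198, 51406, 51585, 27648 and 45309 in control and at 30364, 32852, 8146, 30617 and 36386 in eKO. Its groups overlapped in that control 4 was below 4 of the eKO libraries, while the other 4 controls were above every eKO library; the difference was -0.78 (SE 0.40, adjusted p = 0.415). Neb, which sets thin filament length, was at 4020.1 ± 1268 in control and 2957 ± 1097 in eKO (SD, n = 5), a difference of -0.51.

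Fast troponin was high and slow troponin scarce in all 10 skin libraries. Tnni2, the inhibitory subunit of fast fibres, was at 3446, 5681, 4285, 2369 and 4919.6 in control and at 3282, 3867, 824, 3986 and 3447 in eKO. Apart from eKO 3, the eKO libraries lay within the control range, and the difference was -0.55 (SE 0.42, adjusted p = 0.601). Tnnt3, the fast tropomyosin-binding subunit, was at 4290.1, 6562, 4976, 2884 and 6889.9 in control and at 4011, 4790.4, 1155, 5516 and 3448 in eKO. Here too eKO 3 was the only library outside the range of the controls, with a difference of -0.54 (SE 0.40, adjusted p = 0.588). The slow counterpart Tnni1 was at 7.57, 6.75, 1.04, 25.2 and 18.1 in control and at 3.56, 0.982, 14.1, 23.4 and 5.85 in eKO. Tnnt1, slow troponin T, was at 4.73, 11.0, 4.18, 14.0 and 2.85 in control and at 4.45, 9.82, 3.85, 4.68 and 0 in eKO. Neither slow subunit exceeded 27 reads in any library, and both groups overlapped.

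Troponin C, the calcium sensor, could be read only in part. Tnnc1, its slow and cardiac form, was listed at 0 in all 16 libraries. Genes that abundant cells of skin use, such as Lipe of fat cells and Itgam of leukocytes, were listed at 0 in all skin libraries too, so the 0 of Tnnc1 says only how it is listed. The fast form Tnnc2 was at 19.9, 41.3, 23.0, 6.53 and 20.9 in control and at 24.0, 8.83, 3.21, 25.3 and 20.47 in eKO. These values are far below those of fast troponin I and T, and in GENCODE M21 74% of the Tnnc2 exon bases overlap Ube2c on the opposite strand; how such reads were counted is not given in the sources used here. The Tnnc2 difference was -0.52 (SE 0.59, adjusted p = 0.741).

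Of the calcium handling genes, Atp2a1, which pumps calcium back into the sarcoplasmic reticulum of fast fibres, was at 15134, 27564, 17834, 9695 and 26267 in control and at 16739.6, 16407, 3997, 23544 and 17024 in eKO. Control 2 and control 5 were highest, eKO 3 was lowest, and the groups overlapped; the difference was -0.42 (SE 0.46, adjusted p = 0.731). Casq1, the calcium store protein of that compartment, was at 2097, 3865, 2514, 1267 and 2678 in control and at 1844, 2049.6, 467, 3085 and 1356 in eKO, a difference of -0.64 (SE 0.46, adjusted p = 0.576). Its groups overlapped, with eKO 3 lowest and control 2 highest. Pvalb, the cytosolic calcium buffer that speeds relaxation of fast fibres, was at 2533, 5521, 2581, 1302 and 2661 in control and at 2493, 2049.6, 336, 4510.3 and 1617 in eKO, also overlapping, with a difference of -0.66 (SE 0.61, adjusted p = 0.673). Pvalb spread further than Casq1, 16.4-fold against 8.28-fold between the lowest library, eKO 3, and the highest, control 2. The release channel Ryr1 was at 4553 ± 1714 in control and 3471 ± 1528 in eKO (SD, n = 5), and the voltage sensor Cacna1s at 664 ± 271 in control and 468 ± 195 in eKO (SD, n = 5). Their differences were -0.48 and -0.56.

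Ckm, the creatine kinase that buffers ATP during contraction, was at 6726, 11534, 8356, 4070.1 and 9716 in control and at 6082, 8000.3, 1786, 11119 and 7267 in eKO. Control 2 and eKO 4 were the 2 highest libraries and eKO 3 the lowest, with a difference of -0.37 (SE 0.46, adjusted p = 0.760). Mb, the oxygen-storing myoglobin typical of oxidative fibres, was at 2567, 4253, 7192, 3499 and 3478 in control and at 4172, 4006, 799, 1781 and 4129.9 in eKO. Mb had its maximum in control 3 and stood low in eKO 4, unlike Ckm, and its difference was -0.66 (SE 0.46, adjusted p = 0.572); in GENCODE M21 31.9% of its exon bases overlap Apol6 or Gm49540 on the opposite strand. Pygm, which breaks down glycogen, was at 5097 ± 1802 in control and 4122 ± 1941 in eKO (SD, n = 5). Eno3, the muscle enolase of glycolysis, was at 3039.7 ± 899 in control and 2480.0 ± 1052 in eKO (SD, n = 5).

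Des, the intermediate filament that ties Z-discs together and is also made by smooth muscle, was at 9196, 16623, 11846, 5759 and 10567 in control and at 7868, 10823, 2936, 8868 and 14132 in eKO. Control 2 and eKO 5 were highest and the groups overlapped, with a difference of -0.36 (SE 0.40, adjusted p = 0.734). The Z-disc crosslinker Actn2 was at 1641 ± 474 in control and 1655 ± 774 in eKO, and its fast-fibre paralog Actn3 at 2409.9 ± 1393 in control and 1781 ± 1840.0 in eKO (SD, n = 5). The Z-disc adaptor Ldb3 was at 5241 ± 1605 in control and 3921 ± 1463 in eKO and the fast-fibre calsarcin Myoz1 at 2081 ± 898 in control and 1560.3 ± 794 in eKO (SD, n = 5). Tcap was at 6135 ± 1458 in control and 5138 ± 2465 in eKO (SD, n = 5). Actn2 had the smallest difference of all tested members, -0.08, while that of Actn3 was -0.84 with an SE of 0.67.

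The light chains, like troponin I and T, were high in their fast and scarce in their slow forms. The fast regulatory chain Mylpf was at 1075 ± 377 in control and 793 ± 305 in eKO and the fast essential chain Myl1 at 1836 ± 631 in control and 1607 ± 809 in eKO (SD, n = 5). The slow and ventricular chains Myl2 and Myl3 did not exceed 4.39 and 4.75 in any skin library. Myosin-binding protein C did not divide in this way: Mybpc1, named the slow form but also made in fast fibres, was at 2907, 3018, 4149.9, 2186 and 4205 in control and at 2689, 3156, 1121, 1414 and 3191 in eKO. The lowest values were those of eKO 3 and eKO 4, the rest lay in the control range, and the difference was -0.59 (SE 0.32, adjusted p = 0.437). The fast form Mybpc2 was at 2335 ± 1335 in control and 1834 ± 1294 in eKO (SD, n = 5).

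Across the 10 skin libraries most members rose and fell as a block. The lowest library was eKO 3 for 26 of the 28 tested members, the exceptions being Myh1 (eKO 4) and Myh2 (eKO 1), and the second lowest was control 4 for 23. Control 2 was highest for 15. The Pearson correlation of a member with the mean of the other tested members, on log2 values over 10 libraries, was above 0.9 for 20 of 28, with a median of 0.957. Without eKO 3 it was above 0.9 for 10, with a median of 0.863. All these points share the libraries and their scaling, so the correlations are descriptions. The median SD of a member's log2 value was 0.783, and 0.241 after the mean of the others had been subtracted. The closest to the block was Tnni2 (r = 0.994, SD after subtraction 0.0847), and the loosest were Myh2 (r = 0.538) and Myh1 (r = 0.544).

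**Figure D2:**
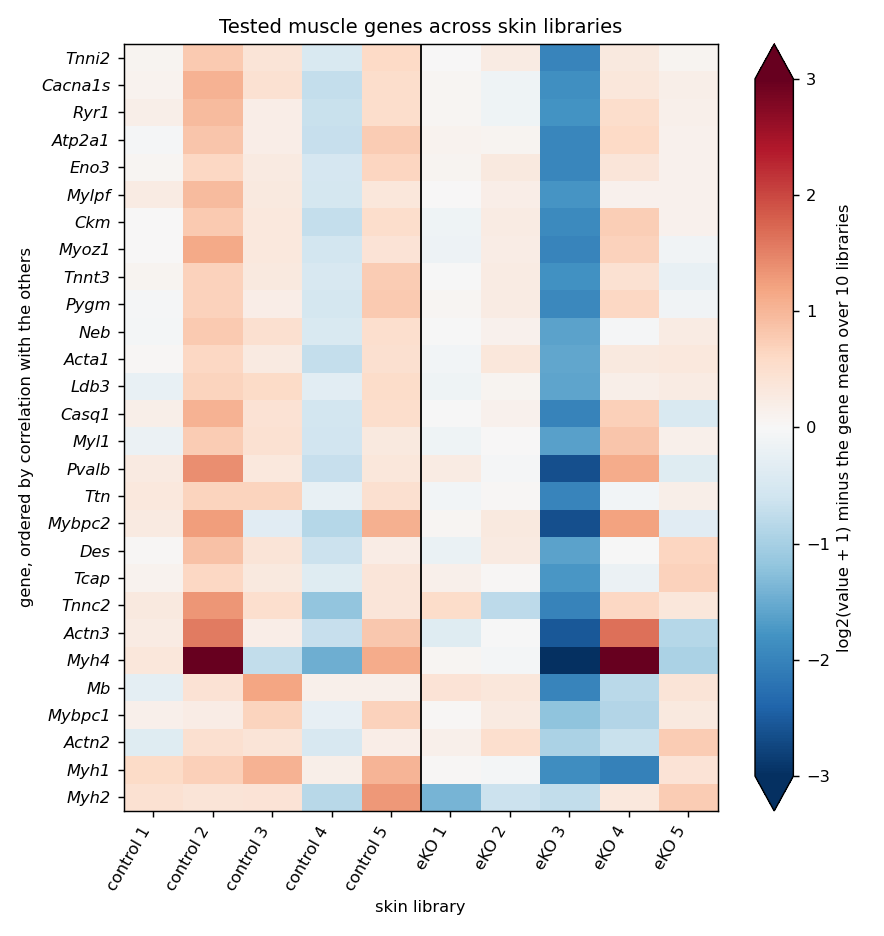
Each row is a tested muscle gene and each column a skin library; colour gives log2(value + 1) minus the gene's mean over the 10 libraries, with the scale ending at 3 either way, and the vertical line parts control from eKO. The eKO 3 column is low in nearly every row, and the rows Myh4, Actn3, Mybpc2 and Pvalb are high in control 2 and eKO 4 where Myh1, Mybpc1, Actn2 and Mb are low in eKO 4.

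The 3 fast heavy chains, the motors that set shortening speed, did not keep this step. Myh4 was at 4128, 27334, 1957, 1177 and 7046 in control 1 to 5 and at 3369, 3109.8, 106, 37547 and 1679 in eKO 1 to 5. Control 2 and eKO 4 were far above all others, eKO 3 was far below, and the eKO range enclosed the control range. Myh1 was at 5185, 5720.0, 7256, 3931 and 7066 in control and at 3583, 3334, 964, 858 and 4659 in eKO, with eKO 4, the highest library for Myh4, as its lowest. Myh2 was at 1725, 1665, 1676, 706 and 3113 in control and at 482, 803, 757, 1572 and 2147 in eKO, highest in control 5 and lowest in eKO 1. Myh7 gave reads in control 2 alone, at 3.37, and was at 0 in the other 9 libraries.

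Per kb of transcript, Myh4 made up 37.7, 78.9, 18.1, 20.4 and 41.2% of the 4 adult heavy chains in control 1 to 5 and 45.6, 43.2, 5.86, 94.0 and 19.96% in eKO 1 to 5. In 8 libraries its share was below 50%, with Myh1 at 40.8 to 67.5%. Control 2 and eKO 4 were dominated by Myh4, and eKO 3 had the highest share of Myh2, 41.4%, against 3.89 to 25.2% elsewhere. The ratio of Myh4 to Myh1 ran from 0.110 in eKO 3 to 43.7 in eKO 4, and both ends of that range were eKO libraries. A ratio within a library does not depend on how much muscle the library holds.

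**Figure D3:**
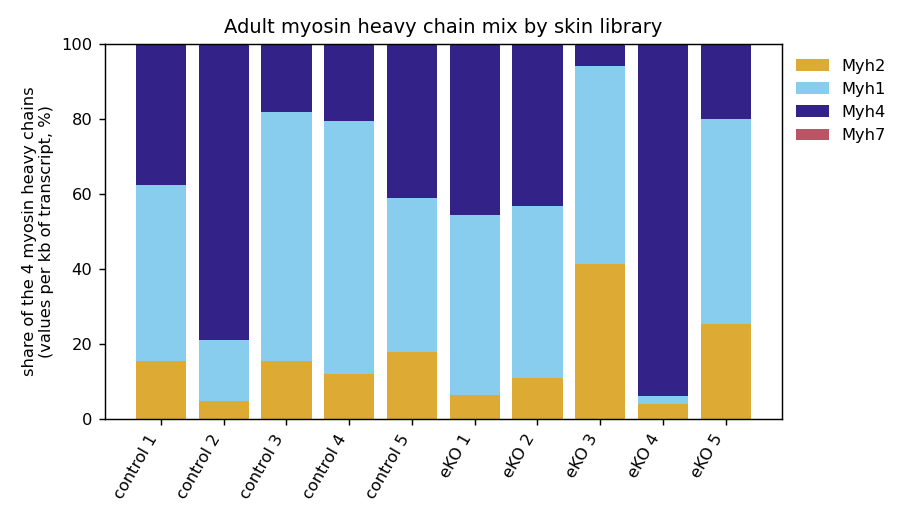
Stacked bars give the share of Myh2, Myh1, Myh4 and Myh7 among these 4 heavy chains (y axis, values per kb of transcript, %) in each skin library (x axis). Myh4 fills 78.9% of control 2 and 94.0% of eKO 4 but 5.86% of eKO 3, and Myh7 is too low to be seen.

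Some other members varied with the heavy chain balance once the block was subtracted. Of the 26 tested members other than Myh1 and Myh4, 4 had a level relative to the other members that correlated above 0.7 with log2 of the Myh4 to Myh1 ratio over the 10 libraries: Actn3 (r = 0.888), Mybpc2 (0.877), Pvalb (0.869) and Myoz1 (0.736). They are 4 of the 12 members of fast fibres other than Myh1 and Myh4; 4 of the 12 had a correlation below 0, among them Mylpf (-0.561) and Tnni2 (-0.419). The correlation was below -0.7 for 7: Mybpc1 (-0.980), Neb (-0.928), Actn2 (-0.817), Tcap (-0.773), Ttn (-0.771), Mb (-0.771) and Ldb3 (-0.735). Each level was centred on its mean over the 10 libraries. In eKO 4, Actn3 lay 1.32 above the mean of the other members on the log2 scale, while Mybpc1 lay at -1.30 and Mb at -1.24. In eKO 3 the order was the opposite, with Actn3 at -0.63 and Mybpc1 at 0.74, though Mb was at -0.04. These correlations over 10 libraries share the scaling of each library and the extreme ratios of eKO 3, eKO 4 and control 2, and are descriptions. The subtracted mean also held Myh1 and Myh4, which ties each relative level to their ratio by construction. This weighs most on members close to the block, such as Tnni2, so a negative value there can be partly built in. The mean was subtracted 1 for 1, with no fitted slope. A member of wide spread, such as Actn3 (SD of log2 values 1.23), thus tends to stand low where the block is low. A member of narrow spread, such as Actn2 (SD 0.576), tends to stand high there. The ratio was lowest in eKO 3, where the block was lowest, so the correlations can partly restate the level of the block. How far they do was not tested.

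The slow isoforms were too scarce to test on their own, so their ratio to the fast partner was compared between genotypes. All 14 members of fast fibres and the 13 of both types passed the filter of a value of at least 10 in 5 libraries, against Mybpc1 alone of the 7 slow ones. The 6 slow members without Mybpc1 together held 5 to 44 reads per library. The mean log2 ratio of Tnni1 to Tnni2, with 1 added to each value, was -8.74 ± 1.69 in control and -8.50 ± 1.99 in eKO (SD, n = 5; exact permutation p = 0.873, two-sided). For Tnnt1 to Tnnt3 the means were -9.39 and -9.58 (exact permutation p = 0.841). For Myh7 to Myh4 they were -11.71 and -11.19 (exact permutation p = 0.722), but Myh7 was at 0 in 9 libraries, so this ratio moved mostly with Myh4. The ratio of Tnnc1 to Tnnc2 likewise reflects only Tnnc2 (exact permutation p = 0.468). All 4 ratios had an adjusted p of 0.873 by Benjamini-Hochberg over the 4, where 0.00794 is the smallest p that 5 against 5 allows, and 3 of them changed sign with other settings.

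No member passed the test of the genotype in skin. Of the 28 tested, 0 reached an adjusted p under 0.05 (limma, Benjamini-Hochberg over 16589 genes), where 0.374% of all genes tested did, and 0 also with edgeR and with DESeq2 on the recovered reads. At an unadjusted p under 0.05 there was 1 member, Myh1, against 14.2% of all genes. Groups that did not overlap were seen for 0 of 28, against 4.18% of all genes. All 28 estimates were below 0, compared with 50.0% of all genes, from -1.40 for Myh1 to -0.08 for Actn2, with a median of -0.53 against 0.00 over all genes. The members share their libraries and moved as a block, so 28 estimates of 1 sign are not 28 observations. Without eKO 3 the median was -0.10, 8 members were above 0 and 20 below, and 0 were called.

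Myh1 had the largest difference, -1.40 (SE 0.47, adjusted p = 0.211), with a 95% interval from -2.44 to -0.37. Its groups overlapped through eKO 5, at 4659, and control 4, at 3931, and the other 4 eKO libraries were below all controls. Without eKO 3 the Myh1 estimate was -1.11 (adjusted p = 0.345), and Myh1 was the only member whose interval left out 0 in either fit. The Ttn estimate moved from -0.78 to -0.38 and that of Acta1 from -0.27 to 0.08. The intervals were wide: that of Acta1 ran from -1.16 to 0.61, and that of Myh4 from -3.91 to 2.03. The sign of the Myh4 estimate, -0.94 by limma, was positive with edgeR (TMM scaling, 0.14) and with DESeq2 (0.14).

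**Figure D4:**
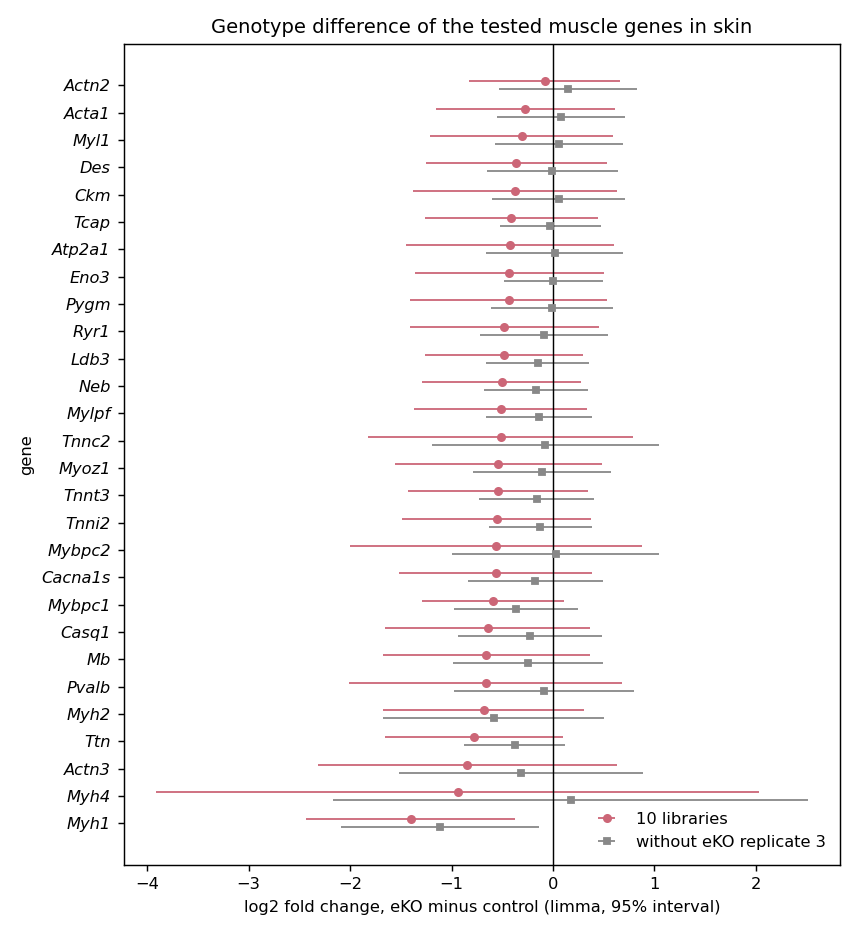
Points give the log2 fold change, eKO minus control, of the 28 tested muscle genes by limma, and bars its 95% interval, with all 10 skin libraries (circles) and without eKO 3 (squares). All circles lie left of 0, 8 squares lie right of it, and only the Myh1 intervals exclude 0.

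Most genes of the other muscle lists were also below 0. All 25 other sarcomere and Z-disc genes were tested, 0 were called, and 25 of 25 were below 0, with a median of -0.41, or -0.10 without eKO 3. Its most abundant gene was Tpm2, a tropomyosin, with a difference of -0.20. Of the 14 excitation-contraction coupling genes, 0 were called and 13 were below 0, median -0.44 (-0.13 without eKO 3), the most abundant being Srl (-0.53) and Trdn (-0.71), the triadin that anchors calsequestrin. The 1 gene above 0 was Casq2, the cardiac and slow calsequestrin (0.47, adjusted p = 0.643). Muscle energy metabolism had 13 of 14 genes tested, 0 called and 12 below 0, median -0.36 (0.05 without eKO 3); its most abundant were Pdk4 (-0.29), a brake on pyruvate oxidation, and Ak1 (-0.42), adenylate kinase, and Cox7a1 was above 0 (0.06).

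Of 9 genes of developing or regenerating muscle, 5 were tested, 0 called and 5 below 0, with a median of -0.53 (-0.24 without eKO 3). The most abundant were the myogenic factors Myod1, at 114 ± 59.5 in control and 73.1 ± 35.9 in eKO, and Myog, at 81.0 ± 71.6 in control and 44.7 ± 24.0 in eKO (SD, n = 5). The neuromuscular junction list had 9 of 10 tested, 0 called and 7 below 0, median -0.27 (-0.11 without eKO 3). Ache, which clears acetylcholine, was at 1029 ± 224 in control and 811 ± 320.0 in eKO (SD, n = 5) with a difference of -0.42, and that of Dok7, needed to build the junction, was -0.45. Colq, the tail of synaptic acetylcholinesterase, was the gene above 0 with the smallest p (0.41, adjusted p = 0.791).

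Smooth and cardiac muscle markers lay on both sides of 0. The 10 smooth muscle genes, 0 called, split into 6 below and 4 above 0, with a median of -0.02. Without eKO 3 there were 3 below and 7 above 0, with a median of 0.13. The most abundant were Synpo2 (-0.25) and Smtn (0.49), and Acta2, smooth muscle actin, was above 0 (0.42, adjusted p = 0.339). The summed value of this list ran from 6465 in control 4 to 12491 in eKO 5. Of 9 cardiac genes 4 were tested, and the defining markers Myh6, Myl7, Nppa, Actc1 and Mybpc3 did not exceed 11.4. Tnnt2, cardiac troponin T, which embryonic skeletal muscle also makes, was at 349, 448, 543, 544 and 632 in control skin and at 301, 209, 257, 119.8 and 271 in eKO skin. All 5 eKO libraries were below all 5 controls, with a difference of -1.16 (SE 0.25, adjusted p = 0.0764) that did not pass the threshold. Control 4, low for the members, was among the highest libraries for Tnnt2, and eKO 4, high for Myh4, was its lowest. The second most abundant cardiac marker, Tnni3, had a difference of 0.37, and Nppb, a natriuretic peptide, of 2.67 (adjusted p = 0.166).

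The other cell types of skin had list medians from -0.63 to 0.84, and 0 of their genes were called. Fat cell genes (9 of 10 tested) had a median of 0.84 with 9 of 9 above 0 (1.23 without eKO 3). The most abundant were Plin4 (0.16) and Fabp4 (0.48), and the list summed to 3469.9 to 49585 in control and 8532 to 43789 in eKO libraries. Dermal fibroblast genes had a median of 0.59 with 8 of 8 above 0 (0.73 without eKO 3), the most abundant being Col1a2 (0.84) and Col1a1 (1.03), and summed to 42853 to 371534 and 55440.3 to 253067. Epidermal genes had a median of 0.57 with 6 of 7 above 0 (0.63 without eKO 3), the most abundant being Krt10 (0.33) and Krt5 (0.18), with Flg2 below (-0.21), and summed to 191883 to 311403 and 241318 to 463857. Hair matrix and shaft genes had a median of -0.63 with 13 of 18 below 0, and without eKO 3 of -1.60 with 17 of 18 below 0. The most abundant, Krt71 (0.14) and Krt25 (0.36), were above 0 over all 10 libraries, as was Hoxc13 (0.89). Schwann cell genes (Pmp22, 0.06; Mbp, -0.16), endothelial genes (Pecam1, 0.08; Cdh5, 0.32; and Emcn, the 1 below 0, -0.05) and leukocyte genes (Cd74, 0.42; H2-Ab1, 0.30) had medians of 0.06, 0.24 and 0.42 (0.13, 0.37 and 0.44 without eKO 3). Their part in the lower muscle estimates was not tested. With the hair list as a covariate the members' median was -0.57, with 0 called.

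A few muscle genes outside the member set were raised far beyond the block in single libraries. They were picked after their values were seen, so they are a description. Klhl40, which stabilises nebulin, was at 2919 in control 2 and 4379 in eKO 5, against 173 to 712 in the other 8. Flnc, a filamin that serves damaged Z-discs, was at 17326 and 19143 in those 2 libraries, against 1923 to 6589 in the others. These 2 libraries were far above the rest for both genes, and 1 is control and 1 eKO. Csrp3 and Ankrd2, stretch-responsive Z-disc and titin partners, reached 2761 and 812 in eKO 5, against at most 1432 and 379 outside these 2 libraries. Relative to the members, on the log2 scale, Csrp3 and Ankrd2 lay at 1.67 and 2.04 in eKO 5. They lay at 0.72 and 0.64 in control 2, and at 1.01 and 0.64 in eKO 3. In eKO 3 the members themselves were low, with a mean log2 value of 9.47 against 10.84 to 12.31 in the other libraries. A positive relative level there is thus a smaller fall than that of the members and not a raised value. Lmod2 and Nrap, which build thin filaments and myofibrils, were high in eKO 5 (8799.5 and 4307); relative to the members they stood near their mean in control 2 (0.13 and -0.07 on the log2 scale).

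**Figure D5:**
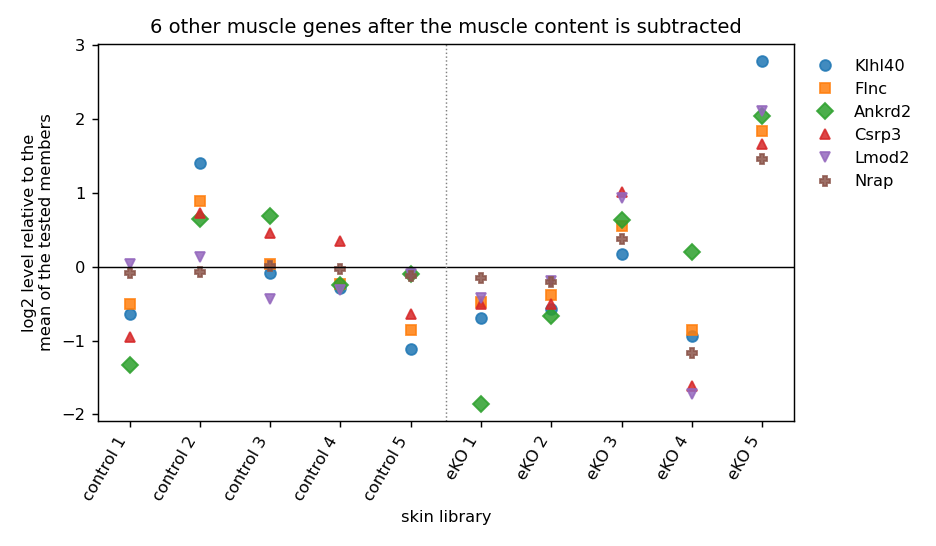
Each point is 1 of 6 muscle genes outside the member set in 1 skin library (x axis), as its log2 level relative to the mean of the tested members, centred on its own mean (y axis). All 6 are high in eKO 5, where Klhl40 reaches 2.79. In control 2 Klhl40 is also high at 1.40, and Flnc, Csrp3 and Ankrd2 lie at 0.89, 0.72 and 0.64.

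Among all 16589 tested genes, 202 had a Pearson r above 0.9 with the mean log2 value of the tested members over the 10 skin libraries: 21 members and 181 others. The 10 most like it outside the set were Ak1 (r = 0.991), Smyd1 (0.988), Clcn1 (0.986), Neurl1a (0.985), Prkab2 (0.985), Fem1a (0.984), Rtn2 (0.981), Aldoart2 (0.981), Srl (0.980) and Mylk2 (0.980). Aldoart2 is a retrocopy of Aldoa, and counting could split reads between the copies, so its value is uncertain. Without control 2 and eKO 3, the 2 libraries farthest from the median, these 10 had an r of 0.898 to 0.982. Ak1 was at 2500.3, 3626, 3023, 1682 and 3413 in control and at 2344, 2531, 897, 3067 and 2273 in eKO, lowest in eKO 3 and control 4 and highest in control 2, as for most members. The 5 genes most opposed were Sardh (r = -0.931), Ntn4 (-0.913), Foxp1 (-0.912), Ctns (-0.909) and Smtn (-0.907), which had an r of -0.525 to -0.853 without those 2 libraries. Of the 181 others above 0.9, 0 were among the 62 genes called between genotypes, against 0.374% of all genes. That share is so small that 0 of 181 says little. All 181 had an eKO estimate below 0, against 50.0% of all genes. They were picked by their likeness to the members, whose tested estimates were all below 0 too.

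The sorted stem cells, examined as a negative check, held very few reads on the 34 genes. The 34 genes took 0.00335, 0.00355 and 0.00311% of recovered reads in control 1 to 3 and 0.00245, 0.00247 and 0.00229% in eKO 1 to 3, or 151 to 230 reads per library. All 3 eKO shares were below all 3 controls. The lowest skin library was 122-fold above the highest of these; the tables were normalised separately and the tissues prepared differently, so of the levels only this share within each library was set across them. With the lists of other sarcomere, coupling and energy genes added, the share was 0.0221 to 0.0307% in stem cells and 0.738 to 3.79% in skin. Among those genes the sarcomere gene Myom3 was at 127 to 250 in the stem cell libraries. In all 6 libraries 13 of the 34 members were at 0, among them Acta1, Tnnt3, Myl1, Des, Pvalb, Cacna1s and Tcap. A count of 0 allows up to 3 reads per library, counting error only. Of the others, 11 reached a value of 10 in at least 1 library, and 7 were tested.

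Actn2 was the most abundant of these, at 64.8, 73.6 and 57.0 in control and at 47.8, 53.7 and 38.3 in eKO, with all eKO values below all controls (difference -0.48, adjusted p = 0.348 by limma). Neb was at 18.0, 23.1 and 19.0 in control and at 3.79, 0 and 9.59 in eKO, again with no overlap (difference -2.50, SE 0.93, adjusted p = 0.0796). These 2 of 7 did not overlap, against 36.3% of all genes tested in the sorted cells, and 0 of 7 were called, against 19.4%. Of the 7 estimates, 6 were below 0, against 52.3% of all genes, with a median of -0.57. At an unadjusted p under 0.05 there was 1 of 7, Neb, against 32.8%; edgeR and DESeq2 called 0. Mylpf was at 30.9, 23.1 and 52.0 in control and 19.0, 12.1 and 46.9 in eKO (difference -0.57, adjusted p = 0.522). Eno3 was at 33.9, 41.0 and 15 in control and 40.9, 12.1 and 7.46 in eKO (difference -0.78, adjusted p = 0.451). Pygm was at 20.9, 36.8 and 18.0 in control and 16.7, 34 and 8.52 in eKO (difference -0.47, adjusted p = 0.633). The groups of these 3 overlapped, each with its lowest value in an eKO library. Ryr1 was at 11.0, 14.7 and 17.0 in control and 6.07, 4.38 and 13.8 in eKO (difference -0.86, adjusted p = 0.438). Ldb3 was at 18.0, 2.10 and 7 in control and 13.6, 11.0 and 9.59 in eKO (difference 0.66, adjusted p = 0.626). Ryr1 and Ldb3 overlapped too, and Ldb3 was the 1 tested member with an estimate above 0.

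Another 4 members reached 10 without passing the filter. Ttn was at 17.0, 6.31 and 5.00 in control and 0, 5.48 and 10.7 in eKO. Atp2a1 was at 4.99, 13.7 and 9 in control and 0, 0 and 7.46 in eKO, and both genes' groups overlapped. Ckm was at 0 in 4 libraries and at 12.1 and 16.4 in eKO 1 and eKO 2. Tnni1 was at 1.99, 0 and 1.000 in control and 10.6, 8.77 and 4.26 in eKO, so that the slow troponin I was higher in every eKO library, at no more than 14 reads. Whether genotype acted unequally in skin and sorted cells, which also differ in labelled age, was tested for the 7 members measured in both, and 0 passed (limma interaction, against 5.62% of genes), the smallest p being that of Neb (-1.99, stem cells minus skin, adjusted p = 0.157). Without stem cell eKO 3, 2 members passed. The eKO stem cell libraries differed from the controls in other ways, against 19.4% of all genes called. All 6 endothelial markers, with a median of 5.21, were higher, and all 4 Y-linked genes, with a median of -1.70, were lower, each past the threshold. Of 9 hair matrix and shaft genes tested 8 were called higher, and of 4 leukocyte genes 2. Of 7 epidermal genes 5 were called higher and 1 lower. The part of these differences in the values above was not tested. Beside 19.4% of all genes, 0 sarcomere (7 tested), excitation-contraction coupling (4), energy (7) and developing muscle genes (1) were called in the sorted cells. Of 2 neuromuscular genes tested 1 was called, Chrnb1, a subunit of the muscle acetylcholine receptor, which was lower (-0.88, adjusted p = 0.0480, limma), and of 6 smooth muscle genes 1 was called, Synpo2, also lower (-1.09, adjusted p = 0.0272). Tnnt2, the cardiac form whose groups did not overlap in skin either, was at 175, 158 and 205 in control and 69.8, 57.0 and 81.0 in eKO stem cells, with no overlap and past the threshold (difference -1.36, SE 0.25, adjusted p = 0.00239, limma).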

How the data were processed

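RNA sequencing was done on whole skin (5 control, 5 eKO) and on sorted stem cells (3 control, 3 eKO). The deposited tables hold, per Ensembl gene, the authors' normalised read counts, a signal in which each library's counts are divided by its own factor; columns were joined to libraries by name. Per the submitters' processing notes, featureCounts and DESeq2 were used for skin, and the build was GRCm39 for all libraries; the aligner, the annotation, the strand setting and the tools for the stem cells are not given in the sources used here. Dividing each deposited column by its smallest step gave whole reads for 100% of the lower values (within 0.01 of a read), to which this check was limited. Higher values were rounded to the nearest read. The recovered reads served for depths, shares and count tests.

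Each tissue was tested separately with limma 3.58.1 (trended variance) on log2(value + 1), for genes that reached 10 in 5 skin or 3 stem cell libraries, the size of the smaller group; p-values were adjusted by Benjamini-Hochberg over these genes and called under 0.05. The procedure was also run on simulated data in which genes varied independently. The members moved together, so that run does not bear on their shared movement. Isoform ratios and Grk2 were compared by exact permutation over libraries. Alternatives were pseudocounts of 0.5 and 10, no filter, edgeR 4.0.16 and DESeq2 1.42.0 on recovered reads, each library left out, covariates for the hair list or the members' mean, and leaving out the 2 skin libraries without Y-linked reads. Leaving out libraries from the mean share was added after the data were seen. Values per kb used GENCODE M21 principal transcripts (GRCm38), and promoters came from RefSeq (GRCm38.p6). The CArG box and the MEF2 site were searched by their usual consensus. Normalisation by 1 factor per library keeps differences in tissue makeup in every value.

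The members and lists were chosen with earlier results of these data known. Genes named were those of a list of members shown in full, the 3 members with the smallest p, the members at 10 or more in a stem cell library, the 2 most abundant and the opposed gene of each list, and the 10 most and 5 least similar genes; 1 gene that this rule names is not reported here.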

Additional observations from a re-analysis of the deposited data

Results flagged for a closer look

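A library far from its group was sought in 60 groups of 5 skin libraries. These were the 28 tested members, the share of reads on all members and the ratio of Myh4 to Myh1, each in control and eKO. By Dixon's criterion at 95%, 10 groups held such a library. The criterion was applied to values before the log2 step used in the tests, and high values weigh more on that scale. Its rate of about 1 in 20 groups by chance alone holds for normally distributed values, which was not tested. The members share libraries, so these are not 10 separate events. In eKO 3, Ttn was at 8146 with the next lowest eKO library at 30364, Neb at 1058 against 3160.4, and Tnni2 at 824 against 3282. In the same library Mylpf was at 251.7 against 867, and Eno3 at 651 against 2654. The other far libraries were high ones of the fast fibre genes. Myh4 stood at 27334 in control 2, with the next control at 7046, and at 37547 in eKO 4, with the next eKO library at 3369. The ratio of Myh4 to Myh1 was 4.78 in control 2 against 0.997, and 43.7 in eKO 4 against 0.940. Actn3 was at 4958 in eKO 4 against 1571. Raised Myh4 thus occurred in 1 library of each genotype.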

How the results depend on the processing

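No member was called in skin under any alternative run, and Ttn, Neb, Myh1, Myh2, Tnni2, Tnnt3, Mylpf, Mybpc1, Actn3, Casq1, Cacna1s, Mb and Ldb3 stayed below 0 in all of them. The number of all genes called in skin, 62 by limma, was 37 without the filter, 31 by edgeR scaled to library size, 54 by edgeR with TMM, 656 by DESeq2, 143 with the hair list as a covariate, 15 with the members' mean as a covariate, 0 without the 2 libraries lacking Y-linked reads, and 10 to 57 with 1 library left out. The members' median in skin ran from -0.72 to -0.098 with 1 library left out, and was 0.052 with their own mean as a covariate, which by construction removes what they share, and -0.048 without the 2 libraries lacking Y-linked reads.

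Some single estimates changed sign; the cause was not tested. With edgeR and TMM these were Myh4 0.14 and Actn2 0.0081, with edgeR and library size Myh4 0.18 and Actn2 0.021, and with DESeq2 Myh4 0.14 and Actn2 0.0078. With the members' mean as a covariate they were Acta1 0.21, Myh4 0.64, Ckm 0.21, Tnnc2 0.15, Myl1 0.21, Mybpc2 0.25, Actn2 0.22, Atp2a1 0.17, Ryr1 0.065, Pvalb 0.10, Des 0.12, Pygm 0.13, Eno3 0.12, Myoz1 0.055 and Tcap 0.048. Without the 2 libraries lacking Y-linked reads they were Acta1 0.17, Myh4 0.34, Ckm 0.14, Myl1 0.097, Mybpc2 0.22, Actn2 0.19, Atp2a1 0.15, Des 0.0083, Pygm 0.13, Eno3 0.11 and Tcap 0.017. With 1 library left out, the ranges that crossed 0 among the 28 members tested in skin were Acta1 -0.49 to 0.080, Actn2 -0.28 to 0.15, Atp2a1 -0.64 to 0.016, Ckm -0.60 to 0.056, Eno3 -0.61 to 0.0028, Mybpc2 -0.93 to 0.026, Myh4 -1.94 to 0.17, Myl1 -0.55 to 0.061, and Ldb3 -0.0029 to 1.30 in stem cells.

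The isoform ratios also turned: Tnnt1 to Tnnt3 was 0.30 with a pseudocount of 10 and -0.61 to 0.36 with 1 library left out. Without the 2 libraries lacking Y-linked reads Tnni1 to Tnni2 was -0.26 and Myh7 to Myh4 -0.87, and with 1 left out they were -0.44 to 0.85 and -0.60 to 1.51. The skin Grk2 difference was -0.28 to -0.17 with 1 library left out, with a permutation p past 0.05 in 8 of 10 cases.

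In stem cells, 2673 genes were called, and 1519 to 2620 with 1 library left out. The members' median was -0.41 with a pseudocount of 10, -0.35 without the filter and -0.67 to -0.32 with 1 library left out. Without eKO 3, 1 member was called, Neb, against 0 to 1 over all such cases, and the difference between tissues was called for 0 to 2 members. The replicate block gave 2696 calls, 0 of them members, and changed no other call. Deviations of same-numbered libraries did not correlate (r = -0.0602, -0.0180 and -0.0256). This check cannot exclude a pairing, because a shared litter or day need not leave such a deviation. No label says what the numbers mark. Depth limits the slow isoforms, at up to 44 reads per skin library, and the members in stem cells, at 151 to 230 reads.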
